A study of Sus scrofa with 6 samples.

Results

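Conserved lncRNAs in *cis*-regulatory regions, together with the genes they lie beside, were examined in 6 *S. scrofa* ovary samples. A lncRNA was a member when the study's annotation placed it just upstream or downstream of an annotated gene, when its sequence aligned to the human genome, the mouse genome or both, and when it was absent from the readable rows of the study's list of tissue-specific lncRNAs. By this rule 683 of the 10813 lncRNAs in the files were members, transcribed from 519 loci, and they named 568 neighbour genes, of which 507 are among the 21607 protein-coding genes in the files. The readable annotation covers 1998 lncRNAs, 987 of them *cis*-regulatory, and 74 conserved ones were left out as tissue-specific. The readable part of that list reaches the identifiers of only 82 members, so the other 601 members were not screened for tissue specificity. The samples were ovaries at 49 days post coitus, 3 from Meishan and 3 from Large White pigs, and no treatment is given for either breed. Total RNA was depleted of ribosomal RNA and sequenced as strand-specific paired-end libraries. The values are RPKM, reads scaled to transcript length and to the mapped reads of the library, so that levels of transcripts of different length can be set side by side. Nothing in the labels says which samples came from separate animals, so p-values measure the spread between these samples only.

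A lncRNA is a long transcript without a protein-coding frame. Those transcribed close to a gene may act on it in *cis*, through their RNA, through the act of transcription or through enhancer elements they carry, and many arise on the strand opposite to the gene at a shared, bidirectional promoter. Such promoters often lie in CpG islands and belong to developmental regulators or to housekeeping genes of RNA processing and cell division. Neighbourhood alone does not show regulation, and the class name *cis*-regulatory describes position only.

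The libraries held between 35185781 and 39033204 mapped reads, of which 18704 to 22287 per library fell on members. These totals were not given but recovered from the RPKM values, as described under the processing. By the paper's methods a count is a read pair where ends are paired. The label ovary was set against marker genes. Among 9 genes of the gonadal soma, 5 were paired with an identifier, with a summed RPKM of 46.4 to 83.2 in Meishan against 39.1 to 45.3 in Large White, and GATA4 and WT1 were above 9 in every library. Of the others, EMX2 was low at 0.138 to 2.28 and LHX9 at 0.260 to 2.39. FST was 37.2 in Meishan replicate 3 and at most 9.56 elsewhere. Among 10 germ cell genes, 6 were paired, with sums of 6.47 to 11.7 in Meishan against 18.3 to 20.8 in Large White, of which KIT made up most in Large White. The other lists gave sums of at most 142 for red cells (3 of 5 genes paired), 74.9 for endothelium (3 of 4), 22.3 for leukocytes (3 of 4), 332 for smooth muscle (3 of 3) and 5.42 for mesonephros and kidney (7 of 8, with UMOD at 0 in all 6 libraries). The lists for steroidogenic cells and for skeletal muscle had only 2 paired genes each and are void as lists. By themselves, CYP11A1, the enzyme that starts steroid synthesis, lay between 506 and 1882, and the muscle gene ACTA1 at or below 0.103. The other steroidogenic gene, CYP17A1, had 1.28, 1.89 and 59.2 in Meishan against 19.1, 25.7 and 14.2 in Large White. MYH3, the other skeletal muscle gene, ranged from 0.797 to 1.92. In further lists picked after their values were seen, 4 luteal and steroidogenic genes summed to 366 to 1328 in Meishan against 510 to 711 in Large White, and 5 meiotic genes summed to at most 0.703. The labels do not say whether the ovaries were those of the fetus or of the pregnant animal. Meishan replicate 3 stood apart. Its INHA, an inhibin subunit of granulosa cells, was 491 against 2.05 to 4.93 in the other 5 libraries, and its INSL3 was 235, which brought the list of 3 paired testis somatic genes to 237 there and to at most 16.1 elsewhere. TOP2A, a gene of dividing cells, was 34.6 there against 1.37 to 1.83 elsewhere, which brought 3 genes of dividing cells to 54.8, and 2 genes of growing follicles summed to 498. The part of cell composition in the results below was not tested, and in such bulk samples fewer cells of a type and less RNA per cell cannot be told apart.

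The members were short transcripts of few exons, with a median length of 672 bases (range 200 to 8014) and a median of 2 exons. The alignment reached human and mouse for 518 members, mouse only for 124 and human only for 41. At the level of transcripts, the annotation gives a lncRNA match in both species for 150 members, in mouse only for 243, in human only for 0 and in neither for 290. Those species names are printed as the annotation has them and were not checked against another source. A CpG island was annotated at 331 members. The neighbour named first was on the opposite strand for 447 members (antisense) and on the same strand for 236 (sense). The paper cautions that sense transcripts of this class may be end exons of known mRNAs, because the pig annotation is incomplete. How many sense members are such exons was not tested. Most members, 604, had 1 neighbour, 69 had 2 and 10 had 3. The neighbours also included 50 genes of small RNAs (small nucleolar, spliceosomal, ribosomal, 7SK and micro RNAs) beside 72 members, and the levels of those small RNAs were not analysed here.

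Most members had low counted levels in these ovaries, while the median neighbour was above the median protein-coding gene. Of the 683 members, 157 (23.0%) were above 0 in all 6 libraries, 282 in some of them, and 244 (35.7%) were listed at 0 in all 6. Only 128 had a mean RPKM of at least 0.5, 17 of at least 5 and 6 of at least 10. The median over neighbours of the mean RPKM was 3.76, against 1.73 over all protein-coding genes and 0.0607 over the members. A level of at least 0.5 RPKM in at least 3 libraries was reached by 134 members (19.6%), 33 of the 208 non-conserved *cis*-regulatory lncRNAs (15.9%), 1514 of all lncRNAs (14.0%), 392 neighbours (77.3%) and 13388 of all protein-coding genes (62.0%).

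An entry at 0 is not the same as absence of a transcript. Of the 402 members that share no exonic base on their strand with another readable lncRNA, 76 (18.9%) were listed at 0 in all 6 libraries. Among the 198 that share some bases the number was 85 (42.9%), and all 83 members whose every base is shared were listed at 0. The counting program leaves out reads that fit several features, so the zeros of overlapping isoforms cannot be told apart from lack of transcription.

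The reads were concentrated in a few members. The 10 with the highest mean level took between 46.3% and 56.0% of all reads on members, depending on the library. Of these 10, 7 had their first neighbour in sense and 3 in antisense.

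The highest was TCONS_00154809, a transcript of 1369 bases and 2 exons on the plus strand of chromosome 12 (positions 62606661 to 62609084, build Sscrofa10.2 as used for the files). It lies antisense to SLC47A2, a transporter that exports drugs and toxins, and sense to ALDH3A2, a dehydrogenase of fatty aldehydes. Its RPKM was 63.9, 64.1 and 34.7 in Meishan against 71.5, 75.2 and 54.2 in Large White. ALDH3A2 had 84.2, 95.8 and 52.6 in Meishan against 110, 119 and 99.1 in Large White, and both transcripts were lowest in Meishan replicate 3. SLC47A2, on the other strand, did not exceed 1.27 in any library.

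The opposite case was TCONS_00576222, 5 exons on chromosome 5 (66371488 to 66373100, minus strand), sense to LAG3, an inhibitory receptor of T cells. The lncRNA had an RPKM of 15.5, 16.3 and 42.8 in Meishan against 21.6, 26.2 and 23.4 in Large White, with Meishan replicate 3 highest. LAG3 itself was at most 0.101 in every library. Here the lncRNA was well expressed and the gene beside it was at or near 0.

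A further 3 members lay in sense to genes of somewhat higher level. TCONS_00388033, beside DPY19L1, a transferase of mannose, ranged from 10.6 to 23.6 and the gene from 15.2 to 25.2. TCONS_00412566, beside GPR108, ranged from 8.81 to 15.3 and the gene from 18.3 to 39.1. TCONS_00350087, beside the endocytic adaptor gene DAB2, ranged from 7.10 to 12.0 and the gene from 32.7 to 55.0. In all 3 pairs the gene was above its lncRNA in every library and its lowest value fell in Meishan replicate 3.

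Other antisense members among the 10 differed in their relation to the gene. TCONS_00389233 had 5 exons and ranged from 6.67 to 15.5, above its neighbour NFE2L3, a transcription factor, which ranged from 0.792 to 4.18. TCONS_00240264 ranged from 6.49 to 12.2 and its neighbour KIF13B, a kinesin motor, from 6.29 to 8.80. Also among the 10 were TCONS_00480818, from 4.53 to 15.6 and sense to a gene without a symbol (ENSSSCG00000007583, 2.49 to 11.7), and TCONS_00389923, described with the breeds.

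**Figure D1:**
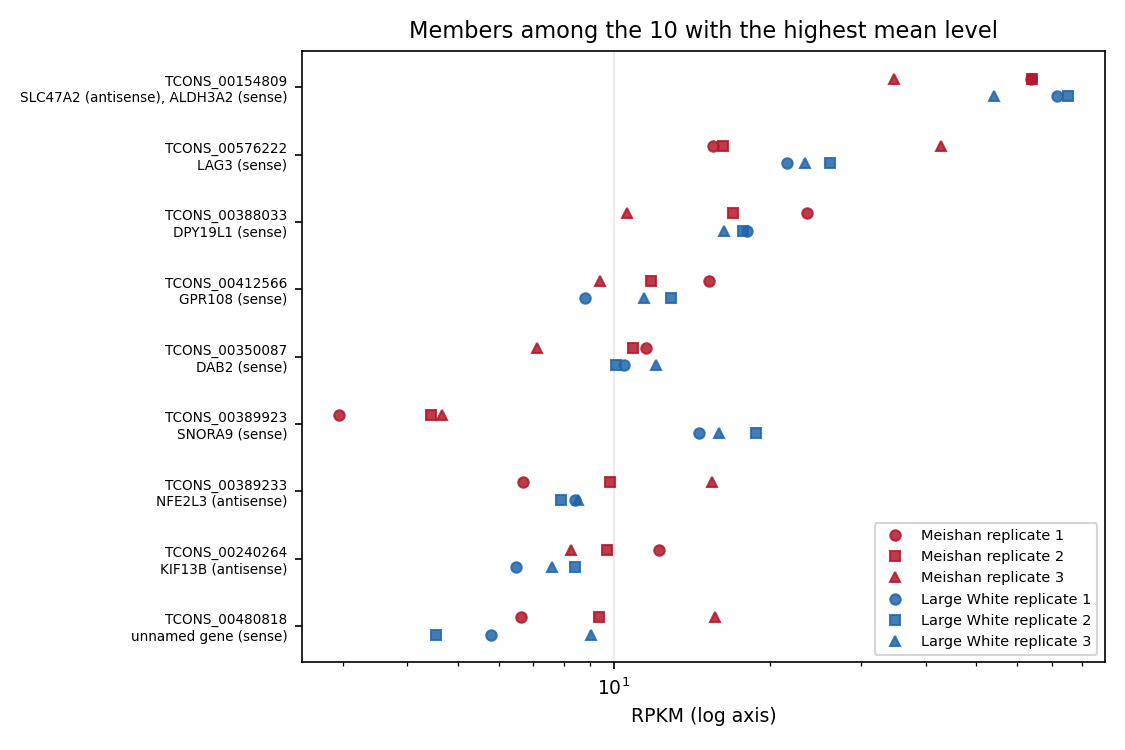
RPKM (log axis) of 9 of the 10 members with the highest mean level, with each neighbour and its strand beside the identifier and 1 point per library, red for Meishan and blue for Large White. TCONS_00154809 lies furthest right at 34.7 to 75.2, and TCONS_00389923 is the one whose breeds stand furthest apart.

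The 3 neighbours with the highest means lay beside members of low level. They and IDH1 were picked after their values were seen. HSD3B, an enzyme of progesterone synthesis, was the highest neighbour, from 516 to 2490, and the lncRNA in sense to it, TCONS_00542653, was at 0 in 3 libraries and at most 1.15. SELENBP1, a selenium-binding protein, ranged from 352 to 2119, and its antisense lncRNA TCONS_00542027 was at most 0.768. The cytoskeletal gene BETA-ACTIN had a mean of 429 and its antisense lncRNA TCONS_00457866 was at most 0.178. A higher member, TCONS_00327622, lies in sense to the isocitrate dehydrogenase gene IDH1 (mean 147) and had 10.8, 7.76 and 4.60 in Meishan against 5.20, 6.39 and 8.21 in Large White.

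A set of 4 comparisons asked which kinds of *cis*-regulatory lncRNA had a read in a library. Each was a two-sided exact permutation test that flips the sign of the difference in each of the 6 libraries, for which 0.03125 is the smallest p it allows, and all 4 reached it (Benjamini-Hochberg adjusted p = 0.03125 over the 4 in each case). The transcripts themselves are the same in every library, so the tests cover the spread between libraries and not that between transcripts. The classes were not matched for transcript length, and its part in the differences was not tested.

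Conserved *cis*-regulatory lncRNAs were above 0 more often than the 208 that aligned to neither species. In Meishan 44.8%, 39.5% and 52.0% of the members were above 0, and in Large White 47.0%, 36.5% and 38.8%. The non-conserved share was 38.0%, 37.0% and 48.1% in Meishan against 41.3%, 35.6% and 34.1% in Large White. The share of members was higher in 6 of 6 libraries, by 4.07 ± 2.15 percentage points (SD, n = 6). At a level of at least 0.5 RPKM the difference was 2.58 points with an exact permutation p of 0.0625, past the threshold no longer. Among lncRNAs that share no exonic base with another the difference was 7.21 points, and with the transcript match in place of the genome alignment it was 9.80 points (exact permutation p = 0.03125 in both). The transcript match regroups the lncRNAs of both sides, and the 290 members without such a match then count as non-conserved.

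Members with a CpG island were above 0 in 46.2% ± 5.92 of cases and those without in 40.2% ± 5.94 (SD, n = 6), a difference of 6.07 ± 1.75 points with the island class higher in 6 of 6 libraries. At 0.5 RPKM or more the shares were 19.2% and 18.8%, and the difference of 0.437 points was within the spread of the libraries (exact permutation p = 0.688). Among members that share no exonic base it was 19.6 points (exact permutation p = 0.03125), so the size of this difference depended on the level and on the overlap with other lncRNAs.

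Members aligned in both species were above 0 less often than those aligned in 1 of them, 41.5% ± 5.83 of 518 against 48.1% ± 6.12 of 165 (SD, n = 6). The difference of −6.58 ± 1.44 points had the same sign in 6 of 6 libraries. At 0.5 RPKM or more it was −2.24 points, with an exact permutation p of 0.125.

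Members in sense to their first neighbour were above 0 in 47.1% ± 5.24 of cases and antisense members in 41.0% ± 6.33 (SD, n = 6), with sense higher in 6 of 6 libraries. The difference was −6.13 ± 2.34 points (antisense minus sense). Bases are shared with another lncRNA by 44.3% of the antisense and 35.2% of the sense members, and the part of this overlap in the difference was not tested. Among the 249 antisense and 153 sense members that share none, the shares were 57.2% and 57.6%, with sense higher in 3 of 6 libraries (exact permutation p = 0.656). At 0.5 RPKM or more, sense members led by a wider margin, 26.4% (25.0% to 29.2%) against 15.1% (14.3% to 16.3%), and the ranges of the libraries did not overlap. That difference was also present among members that share no base, 35.5% against 26.2%, by −9.27 ± 1.41 points in 6 of 6 libraries (exact permutation p = 0.03125, an alternative chosen after seeing the data).

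**Figure D2:**
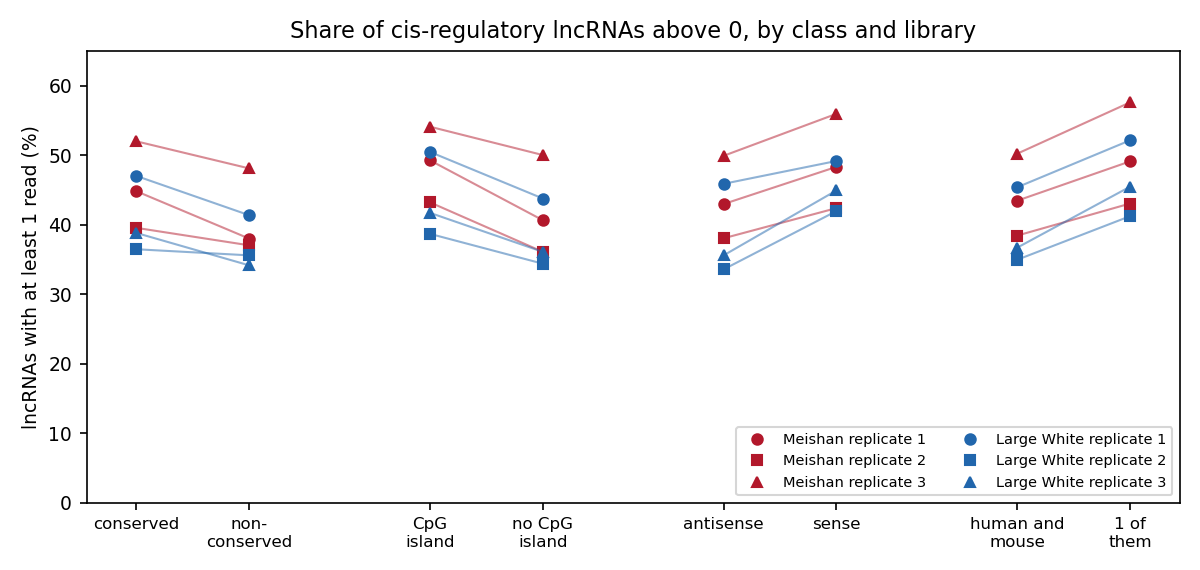
Percent of lncRNAs with at least 1 read, for 4 pairs of classes, with 1 line per library (red for Meishan, blue for Large White). Every line falls from conserved to non-conserved and from CpG island to none, and every line rises from antisense to sense and from human and mouse to 1 of them.

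Between the breeds the share of members above 0 was 45.4% ± 6.25 in Meishan against 40.8% ± 5.54 in Large White (SD, n = 3 each). The difference of 4.69 points was within the spread of the libraries (two-sided exact permutation test of 3 against 3, p = 0.4, where 0.1 is the smallest p allowed). Meishan replicate 3 had the highest share, 52.0%, and with single libraries left out the difference ran from 1.42 points, without that library, to 7.81 points, without Large White replicate 1.

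Members of higher level lay beside genes of higher level among sense pairs, and hardly so among antisense pairs. Sense members may include exons of the neighbour itself, as cautioned above, and their part in this was not tested. Among the 189 sense pairs, the neighbour's median RPKM was 2.08 where the lncRNA was at 0 (60 pairs), 2.21 where it was above 0 and under 0.5 (81 pairs) and 4.88 where it was at least 0.5 (48 pairs). Among the 423 antisense pairs the 3 medians were 5.11, 5.15 and 5.06. A gene that is first neighbour of several members counts in these medians once for each of them. Across the pairs in which both transcripts reached 0.5 RPKM in 3 libraries, Pearson's r of log2(RPKM + 1) was 0.43 to 0.55 over the libraries in sense (47 pairs) and 0.05 to 0.26 in antisense (59 pairs). These correlations run across pairs, which are not independent replicates and share their library, and they are given as a description. Left without the lncRNA of highest level, r of the mean levels was 0.50 in sense and 0.17 in antisense. Overlapping isoforms weigh on the class at 0. Among lncRNAs that share no base, the neighbour's median was 0.102 where a sense lncRNA was at 0 (24 pairs) and 4.76 where it was at least 0.5 (47 pairs), and in antisense pairs it was 2.96 (41 pairs) and 4.68 (61 pairs).

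**Figure D3:**
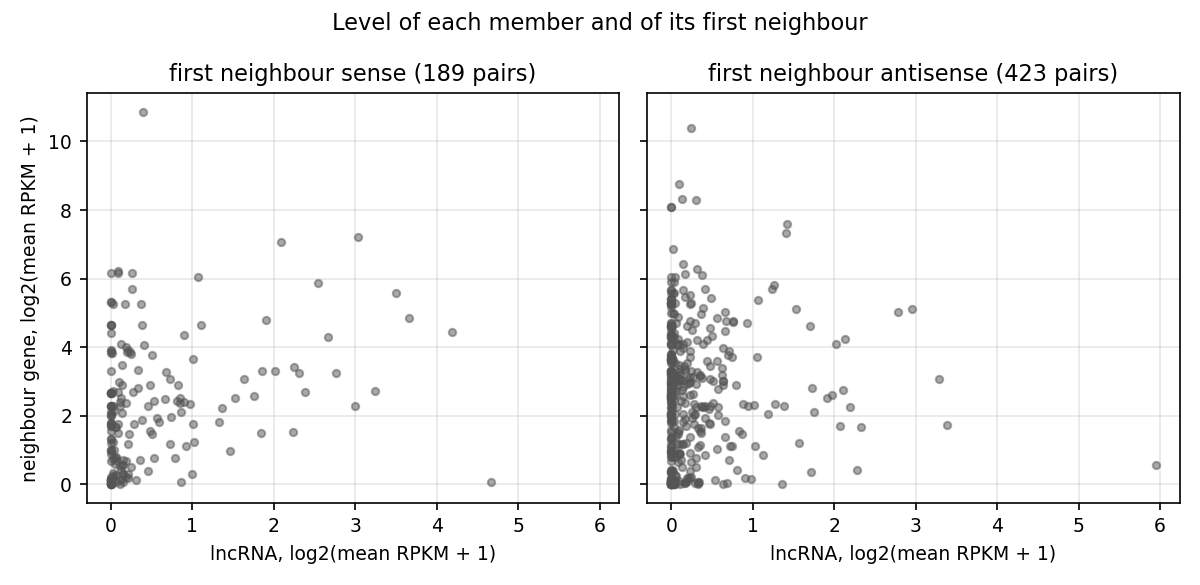
Level of each member (horizontal) and of its first neighbour (vertical), both as log2 of the mean RPKM plus 1, with 1 point per pair. In the 189 sense pairs the points rise to the right, apart from TCONS_00576222 and LAG3 at the lower right, and in the 423 antisense pairs genes of every level lie at the left, where the lncRNA is near 0.

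Within a pair, lncRNA and gene moved together from library to library only loosely. Over the 6 libraries the median r was 0.21 for 54 sense pairs (34 above 0) and 0.31 for 68 antisense pairs (52 above 0), every listed neighbour counted. Without Meishan replicate 3 the medians were 0.06 and 0.27, with 53.7% of sense and 67.6% of antisense pairs above 0. No r with genes other than neighbours is given here, so shifts common to a whole library are not set apart. For the 149 pairs of the separate antisense class, whose transcripts overlap the exons of their gene on the other strand, the median was 0.81, and without that library 0.73. The non-conserved *cis*-regulatory pairs had medians of 0.25 in sense (13 pairs) and −0.05 in antisense (15 pairs), and the intronic class 0.19 in sense (37 pairs) and 0.25 in antisense (101 pairs). These too are descriptions, since each r rests on 6 libraries.

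The neighbours were also grouped by function, with sense and antisense given here relative to the gene of the group. Beside 22 developmental transcription factors lay 38 members, 28 of them antisense, of which 7 were above 0 in all 6 libraries and 15 were at 0 in all. None of the 3 lncRNAs and none of the 11 genes that could be tested was called between the breeds (limma, with the criteria given with the breed comparison), where 0.925% of all lncRNAs and 0.739% of all protein-coding genes tested were called. At these shares, lists of this size and of those that follow would be likely to hold no call, so nothing is read from their counts. At an unadjusted p under 0.05 were 0 of the lncRNAs and 2 of the genes, against 14.7% of all lncRNAs and 16% of all protein-coding genes tested. A mean of at least 0.5 was reached by 3 of the members.

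TCONS_00262667, on chromosome 14 (16070250 to 16072167) in a CpG island, is antisense to GATA4, a zinc finger factor of the gonadal soma. Its RPKM was 1.96, 0.135 and 1.01 in Meishan against 0.372, 0.968 and 0.999 in Large White, which rests on 5 to 71 reads. GATA4 had 30.4, 29.2 and 29.0 in Meishan against 18.1, 20.9 and 23.9 in Large White, so the gene's breeds did not overlap while those of the lncRNA did. The breed difference of GATA4 did not pass the test (0.49 on the log2(RPKM + 1) scale, limma adjusted p = 0.229).

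TCONS_00299549, a transcript of 3450 bases in sense to the homeobox gene HOXD4 on chromosome 15 (91421740 to 91425412), was the steadiest of the developmental members. It had 1.87, 1.49 and 2.18 in Meishan against 2.48, 2.04 and 2.52 in Large White, with at least 191 reads in each library, and HOXD4 ranged from 6.21 to 8.41. TCONS_00589328, of 229 bases and antisense to the homeobox gene IRX6, had 1.67, 0 and 0 in Meishan against 3.23, 2.22 and 0 in Large White. IRX6 had 0.379, 0.149 and 0.199 in Meishan against 1.72, 1.33 and 1.07 in Large White, without overlap, and its difference of −0.93 missed the threshold (limma adjusted p = 0.0984). It reached 0.5 RPKM in Large White only and was tested only through that breed, so nothing is read from its lack of overlap. Below 0.5 lay, among others, the members beside FOXO1 (gene mean 16.1, highest lncRNA mean 0.316), ID2 (11.1 and 0.352) and HES1 (4.63, with 3 lncRNAs at 0).

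Beside 18 genes of growth factor, Wnt, BMP, Notch and hedgehog signalling lay 25 members, of which 1 was above 0 in all libraries and 13 at 0 in all. None of the 2 lncRNAs and none of the 12 genes tested was called (limma, against 0.758% of all features). An unadjusted p under 0.05 was found for 0 and 3 of them, against 14.7% of all lncRNAs and 16% of all protein-coding genes. TCONS_00568888, with its 2 exons spread over chromosome 5 from 15413976 to 15424499, lies between a pair of Wnt ligand genes, antisense to WNT1 and sense to WNT10B. It had 1.44, 2.12 and 0.156 in Meishan against 1.55, 0 and 0.597 in Large White, and WNT10B had 3.73, 4.54 and 0.832 in Meishan against 3.34, 1.50 and 2.07 in Large White. The 3 libraries with the most lncRNA were also the 3 with the most WNT10B, whereas WNT1 did not exceed 0.306. The effector of Wnt signalling CTNNB1 had a mean of 59.3, with antisense lncRNAs at a mean of 0.0274 and at 0. INHBA, an activin subunit, was 221 in Meishan replicate 3 and at most 4.67 elsewhere, and both lncRNAs in sense to it were at 0 in all libraries.

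**Figure D4:**
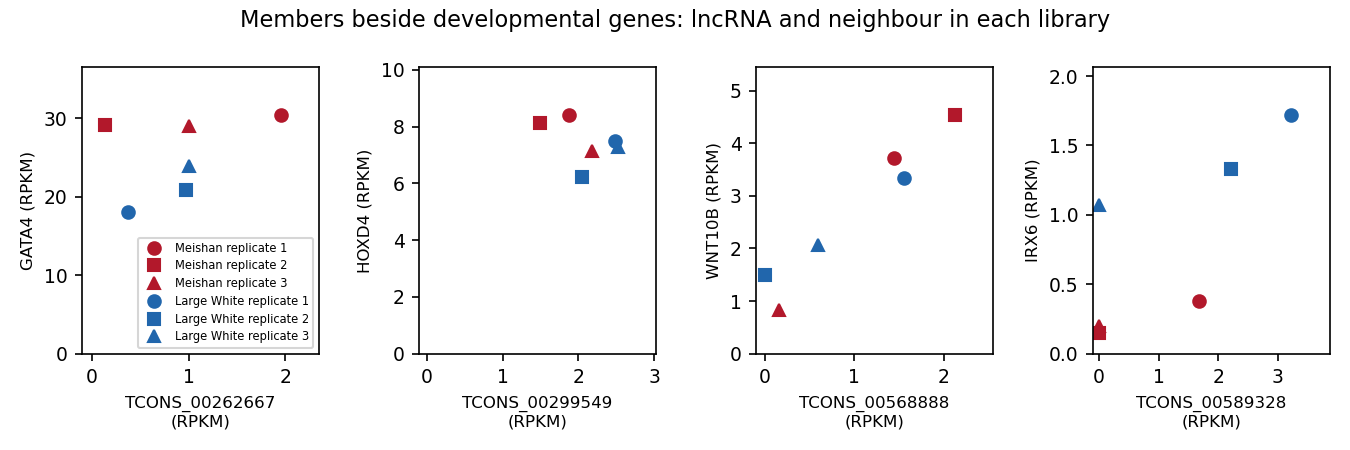
RPKM of 4 members (horizontal) and of the developmental gene beside each (vertical) in the 6 libraries, red for Meishan and blue for Large White. GATA4 and IRX6 separate the breeds along the vertical axis only, and WNT10B rises with TCONS_00568888 over most libraries.

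Beside 10 immediate early and stress genes, with a median gene level of 41.9, lay 14 members, all antisense, of which 4 were above 0 in all libraries. The highest was TCONS_00179973 (mean 1.65) beside SERP1, a protein of the stressed endoplasmic reticulum with a mean of 159. TCONS_00549521, sense to its first neighbour RPS19BP1 (mean 19.4) and antisense to the stress factor ATF4, was 0.982 to 1.12 in Meishan against 0.559 to 0.860 in Large White, and ATF4 was 42.1 to 53.6 in Meishan against 63.5 to 80.9 in Large White. Both stood apart by breed in opposite directions, and neither difference passed the test (adjusted p = 0.438 and 0.235).

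Beside 19 genes of chromatin and transcription cofactors lay 28 members, 15 of them antisense, of which 9 were above 0 in all libraries and 10 at 0 in all. The 6 members whose mean was highest were all in sense to their gene. TCONS_00425732, beside PHF15, a subunit of a histone acetylase, had 6.52, 5.64 and 4.69 in Meishan against 8.34, 6.96 and 9.76 in Large White, above the gene, which ranged from 2.88 to 5.51. TCONS_00412677 beside MLLT1, a factor of transcription elongation, had a mean of 5.81, and TCONS_00519035 beside GATAD2B, of the NuRD complex, 3.76. The genes beside them had means of 8.39 and 9.74.

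In the list of RNA processing, ribosome and translation, with 23 genes, 33 of 35 members were antisense, 8 were above 0 in all libraries and 14 at 0 in all. TCONS_00440740, antisense to the splicing factor gene KHSRP (mean 18.0), had the highest mean, 3.38. The antisense members of the ribosomal genes RPL4 and RPS9 had means of 0.0520 and 0.0932, against 394 and 321 for the genes. Beside 21 genes of cell cycle, division and DNA repair lay 33 members, 6 of them above 0 in all libraries. TCONS_00278475, antisense to the mitotic kinesin KIF20B, had 1.76, 5.40 and 9.88 in Meishan against 3.20, 1.72 and 2.15 in Large White. KIF20B had 0.966, 1.79 and 5.52 in Meishan against 1.40, 1.76 and 1.57 in Large White. Gene and lncRNA were both highest in Meishan replicate 3, the library with the high TOP2A.

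The 22 neighbours known for other adult tissues had a median of 0.0559, and 11 of the 25 members beside them were at 0 in all libraries. Apart from the lncRNA beside LAG3, TCONS_00593432 stood out, antisense to SHANK1, a scaffold protein of synapses. It had 4.67, 2.24 and 1.99 in Meishan against 4.82, 5.81 and 3.67 in Large White, and SHANK1 did not exceed 0.579. Of the 72 members beside small RNA genes, 22 were above 0 in all libraries and 34 at 0 in all. The genes that could be tested between the breeds were 10 of 10 in the stress list, 19 of 19 cofactors, 23 of 23 in RNA processing, 20 of 21 in cell division and 2 of 22 known for other tissues, with 5, 6, 6, 6 and 2 lncRNAs beside them. None of these genes or lncRNAs was called (limma, against 0.758% of all features), and among the 14 tested members beside small RNA genes only TCONS_00389923 was. An unadjusted p under 0.05 was reached by 2, 7, 3, 1 and 0 of the genes in these lists, in the same order, and by 1 lncRNA, beside a cofactor gene. The matching background was 16% of all protein-coding genes and 14.7% of all lncRNAs tested, and nothing is read from these small counts.

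The breeds were compared with limma on log2(RPKM + 1) over all 14902 features that reached 0.5 RPKM in at least 3 libraries, with Benjamini-Hochberg adjustment across the whole table. A feature was called where this scale gave a fold of at least 2 together with an adjusted p under 0.05. Of the 134 members tested 2 were called, both lower in Meishan, against 0.758% of all features called (0.925% of all lncRNAs) and 0.544% called lower. A count of 2 is too small to set the members apart from that background. At an unadjusted p under 0.05 were 10 members (7.46%), against 15.9% of all features and 14.7% of all lncRNAs, and in 17 members (12.7%) the breeds did not overlap, against 23.6% and 18.0%. The median difference of the members was 0.11, that of all lncRNAs 0.09 and that of all features −0.03.

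TCONS_00389923 was lower in Meishan. It is a transcript of 1077 bases and 5 exons in a CpG island on chromosome 18 (55398435 to 55403567, plus strand), aligned in human only, in sense to SNORA9, a small nucleolar RNA of the class that guides pseudouridylation. Its RPKM was 2.95, 4.44 and 4.66 in Meishan against 14.6, 18.8 and 16.0 in Large White, from 116 to 196 reads and from 553 to 757 reads. All Meishan values lay below all Large White values, with means of 4.02 ± 0.935 and 16.4 ± 2.13 (SD, n = 3 each). The difference was −1.81 on the log2(RPKM + 1) scale (SE 0.197, limma adjusted p = 0.0145).

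A second isoform of the same locus, TCONS_00389924, did not show this difference. It has 2 exons and shares 156 bases with the first, and its RPKM was 1.12, 1.43 and 1.28 in Meishan against 1.13, 0.636 and 1.25 in Large White (difference 0.19, SE 0.200, adjusted p = 0.676). It was examined after the first was called. The first isoform exceeded the second by 1.12 ± 0.210 in Meishan and by 3.13 ± 0.405 in Large White on the log2(RPKM + 1) scale (SD, n = 3 each), a change of −2.00. For this change the two-sided exact permutation test gave p = 0.1, the smallest that 3 against 3 samples allow. The first isoform was picked for its difference between the breeds, so this p adds nothing to the call. Reads on the shared bases are in neither value.

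TCONS_00552326 was lower in Meishan too. It is a transcript of 435 bases and 2 exons on chromosome 5 (24107709 to 24108487, plus strand), aligned in mouse only and antisense to SDR9C7, a short-chain dehydrogenase. Its RPKM was 1.19, 1.36 and 0.942 in Meishan, from 16 to 22 reads, and 3.85, 4.67 and 7.15 in Large White, from 59 to 116 reads, without overlap. The difference was −1.49 (SE 0.229, limma adjusted p = 0.0400). SDR9C7 had 1.05, 0.714 and 2.58 in Meishan against 2.02, 4.37 and 2.68 in Large White, with overlap, and its difference of −0.75 did not pass the test (adjusted p = 0.322).

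Neither call held under every omission of 1 library, although both differences kept their sign. An omission also leaves fewer samples to test. With any one Large White library left out, or Meishan replicate 2, no member was called, with differences from −1.90 to −1.64 for TCONS_00389923 (adjusted p from 0.00784 to 0.125 over the 6 omissions) and from −1.65 to −1.28 for TCONS_00552326 (0.0348 to 0.217). Without Meishan replicate 1 only TCONS_00389923 was called, and without Meishan replicate 3 TCONS_00401337 was called as well as both.

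The other members named here did not pass the test although their breeds did not overlap. TCONS_00429359 and TCONS_00591458 passed the filter of 0.5 RPKM only through the breed in which they were higher. For these members the lack of overlap was partly a condition of being tested, and nothing is read from it. TCONS_00401337, of 206 bases and antisense to the histone chaperone gene NAP1L4, had 0.664, 0.522 and 1.37 in Meishan against 3.73, 2.33 and 2.73 in Large White, from 4 to 27 reads (difference −1.10, adjusted p = 0.0984, and −1.29 with 0.0330 without Meishan replicate 3). TCONS_00429359, in sense to the NAD synthetase gene NADSYN1, had at most 0.441 in Meishan against 0.754 to 1.83 in Large White (−1.03, adjusted p = 0.137). Higher in Meishan in every library were TCONS_00307401, at 2.93, 4.22 and 3.23 against 0.880, 1.46 and 1.60 (0.95, adjusted p = 0.0984), and TCONS_00591458, at 1.02 to 1.92 against 0 to 0.372 (0.97, adjusted p = 0.121). The latter lies in sense to LIN37, a subunit of a cell cycle repressor complex, and antisense to HSPB6, a small heat shock protein, and both genes were at most 0.209. TCONS_00461595, of 5061 bases and antisense to the micro RNA gene ssc-mir-365-1, had 4.43, 4.12 and 3.82 in Meishan against 2.27, 2.40 and 2.85 in Large White, from 404 to 819 reads (0.55, adjusted p = 0.180).

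**Figure D5:**
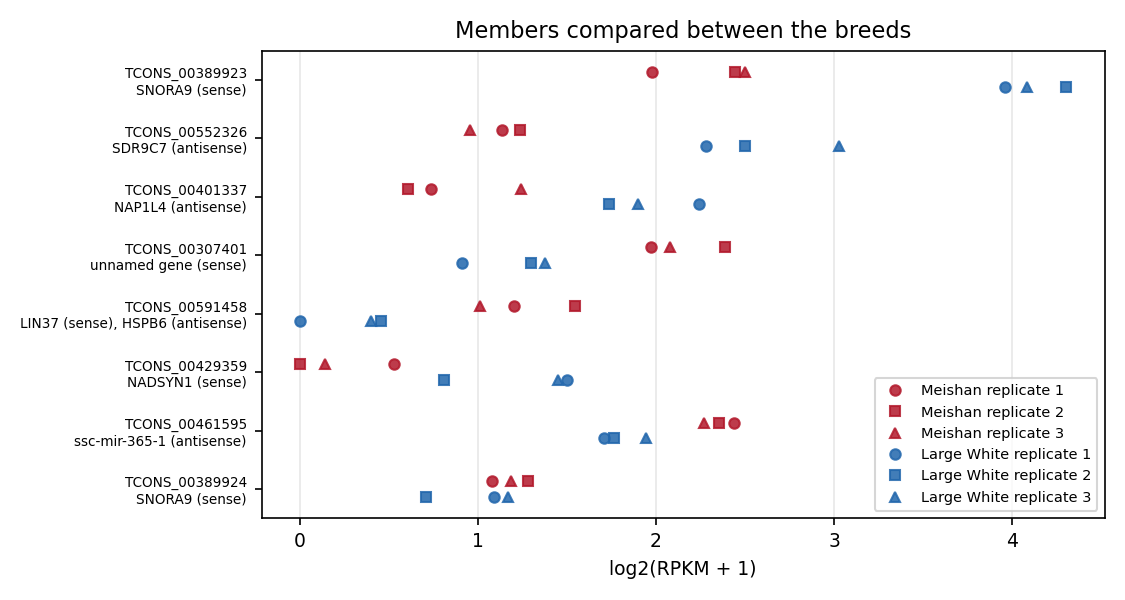
Level, as log2(RPKM + 1), of the 7 members named for the breed comparison and of TCONS_00389924, the second isoform beside SNORA9, with 1 point per library (red for Meishan, blue for Large White). The red and blue points lie apart in the upper 7 rows, of which only the upper 2 passed the test, and mix in the lowest.

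No neighbour gene was called among the 392 tested (limma), against 0.739% of all protein-coding genes. An unadjusted p under 0.05 was reached by 62 (15.8%), against 16% of the protein-coding genes tested, and in 107 (27.3%, against 24.2%) the breeds did not overlap. The smallest adjusted p was that of SIPA1L1, a regulator of Rap signalling, at 18.3, 18.2 and 17.1 in Meishan against 9.53, 10.3 and 10.9 in Large White (0.75, SE 0.146, adjusted p = 0.0741). With limma-voom on recovered reads, added after seeing the data, 1 neighbour was called, ENSSSCG00000010278 (2.76, adjusted p = 0.0413), at 0.854 to 1.17 in Meishan against 0.0915 to 0.276 in Large White. No Large White library reached 0.5 RPKM, so this gene was tested only through Meishan and its separation was partly a condition of the test. The 2.76 is on a log2 scale of read counts, and the main fit gave 0.757 on the log2(RPKM + 1) scale.

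The last comparison asked whether a lncRNA changed against its own neighbour. In the 122 pairs of members in which both transcripts were tested, none was called by limma on the difference of the log2 values, against 0.388% of all 515 pairs of the annotation, and 16 (13.1%, against 11.7%) had an unadjusted p under 0.05. Closest was TCONS_00307401 against the unnamed gene ENSSSCG00000016263, where the lncRNA differed by 0.95 and the gene by −0.31 (difference of the pair 1.26, SE 0.213, adjusted p = 0.0535). Next came TCONS_00425732 against PHF15 (−0.87, SE 0.159, adjusted p = 0.0737). In 29 of 54 sense pairs and 43 of 68 antisense pairs, lncRNA and gene differed between the breeds in the same direction.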

How the data were processed

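Per the labels and the study's methods, TRIzol-extracted, DNase-treated and ribosomal RNA-depleted RNA was sequenced strand-specifically. The authors deposited RPKM values per feature, counted on read pairs with htseq-count by strand after mapping to build Sscrofa10.2. The methods name TopHat, and the submitters' processing notes TopHat2 2.1.0 and HTSeq. Reads were recovered by dividing RPKM values by the value of 1 read, given the annotated lengths, and 100% of lncRNA values above 0 were whole (tolerance 0.01 reads). Classes, neighbours and positions came from the study's annotation, of which 1998 rows were readable. Symbols came from it and from a name table (11837 genes).

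The fits used limma 3.58.1 in R 4.3.3 (lmFit, eBayes with a trend), with log2(RPKM + 1) and the stated filter, and this scale understates changes of low features. Both fits were run on simulated reads with a fixed spread between samples and changes of 2 on the log2 scale, placed only in features of higher level. They recovered all 200 changed features and all 4 changed pairs. Without changes they gave 1 and 0 false calls. Most members lie lower, so the simulation does not cover them. Exact tests used scipy 1.17.1. Alternatives covered the pseudocount, filter, scaling, trend, limma-voom, block, omitted libraries, detection level and shared bases. Members, lists and tests were chosen with earlier results of these data known. Named members were the 10 highest, the called (filled to 6 by adjusted p), the 3 largest non-overlapping rises and falls, those beside developmental or signalling genes at a mean RPKM of at least 0.5, and their first neighbours. The result for 1 of the 10 highest is not reported here. Sequences were not used here.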

Additional observations from a re-analysis of the deposited data

How the results depend on the processing

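The number of members called between the breeds was 2 with a pseudocount of 0.1, with quantile or upper quartile scaling, without the trend, and with the adjusted p as the single criterion. It was 1, TCONS_00389923, with a minimum RPKM of 0.1 and with limma-voom on recovered reads, 0 without a filter, and 0 to 3 with a library left out. TCONS_00552326 had a limma adjusted p of 0.0524 with that minimum and a limma-voom adjusted p of 0.184. Its adjusted p was under 0.05 in 5 of 14 alternative settings, and that of TCONS_00389923 in 9 of 14. The replicate numbers did not pair the samples (correlations of the deviations of same-numbered samples −0.0423, 0.120 and 0.146), and with the replicate number as a block 1 member was called, TCONS_00389923 (adjusted p = 0.0403). The cause was not tested. No neighbour was called under any setting except limma-voom (1), and no member pair under any setting run. The block changed no other call. No share difference and no difference of a named member between the breeds reversed under the settings run.

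The conserved against non-conserved share differed by 2.58 points (exact permutation p = 0.0625) at 0.5 RPKM or more. There, the CpG island difference was 0.437 and that by species aligned −2.24 points. The antisense minus sense difference was −0.463 points among lncRNAs that share no base, where fewer transcripts are compared. With a library left out, no share test can go below an exact permutation p of 0.0625, and the differences ranged from 3.52 to 4.71, 5.56 to 6.47, −6.97 to −6.14 and −6.69 to −5.48 points for conservation, CpG island, species and strand.

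The log2 ratio of the neighbours' median, lncRNA at 0.5 RPKM or more over lncRNA at 0, was 1.23 in sense and −0.01 in antisense pairs. It was 5.55 and 0.66 among lncRNAs that share no base, and 1.10 to 1.69 and −0.38 to 0.09 with a library left out.

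Depth limits the low members: 3 reads on 1 kb equal an RPKM of 0.0769 to 0.0853, a floor for counting error only.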
